A study of Mus with 18 samples.

Results

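The 9 genes described here are the Janus kinases Jak1, Jak2, Jak3 and Tyk2 and the STAT transcription factors Stat2, Stat3, Stat5a, Stat5b and Stat6 of the mouse. They were taken by gene symbol from 21401 symbols listed for each of 2 experiments, and all 9 were listed in both. The first experiment used C2C12, a line of mouse myoblasts (precursors of muscle fibres), given vehicle only (control), given lipopolysaccharide at 1 μg/mL (LPS), or given the same LPS together with moringa isothiocyanate-1 (LPS-MIC-1), an isothiocyanate from Moringa oleifera seeds, for 24 h. The second used gastrocnemius muscle of male C57BL/6 mice. These mice received vehicle (control), an intraperitoneal injection of LPS at 10 mg/kg (LPS), or MIC-1 at 80 mg/kg by gavage daily for 3 days and then LPS (LPS-MIC-1), and muscle was collected 16 h after LPS. Among the mice, the labels give 10% DMSO for LPS-MIC-1 only. By these labels, MIC-1 and its solvent cannot be told apart in LPS-MIC-1 against LPS. The labels name no engineered allele in any group and give no age. Each group had 3 libraries, 18 in all, and p-values measure only the spread between these libraries, which may be technical in the cells because nothing states that they came from separate cultures. The comparisons within an experiment share libraries, so they are not independent of each other.

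Many cytokine receptors carry no kinase of their own and rely on Janus kinases bound to their tails. When a cytokine such as interleukin-6 or an interferon joins the receptor chains, the kinases phosphorylate the receptor and then the STAT proteins, which pair and enter the nucleus to switch on genes, among them the Socs genes that shut the signal off. In muscle, Stat3 is known for its part in wasting and in the acute-phase response, and Stat5b for the action of growth hormone. The measurements here are RNA levels and do not show phosphorylation.

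Values are FPKM, in which reads are counted per transcript length and scaled between libraries, so levels can be compared between genes. Changes are on the log2(FPKM + 0.1) scale from limma, with the standard error (SE) and a p-value adjusted over all genes tested by the Benjamini-Hochberg method. A gene passed the test when that p was under 0.001 (C2C12) or 0.05 (muscle), and it was called when its absolute log2 change was also over 1, as in the thresholds of the study. All 9 genes were among the 10877 genes tested in C2C12 (mean FPKM over 1), and 8 were among the 9475 tested in muscle, where Stat5a was too low. No single comparison of 3 against 3 libraries can go below p = 0.1 in an exact 2-sided permutation test.

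The cell type markers of the C2C12 libraries went against the label in 6 of 9 libraries. The 11 listed macrophage markers (of 12 in the list) summed to between 9104 and 9208 FPKM in control, 5971 and 6098 in LPS and 78.3 and 246 in LPS-MIC-1. The 8 myogenic markers summed to no more than 2.43 FPKM in any control or LPS library and to between 841 and 1096 in LPS-MIC-1. Myod1, the myogenic master regulator, was listed at 0 in replicates 1 and 2 of both control and LPS, and it was at 56.7, 49.5 and 55.7 FPKM in LPS-MIC-1. Lyz2, the macrophage lysozyme, averaged 4694 ± 85.5 FPKM (SD, n = 3) in control and 1838 ± 45.5 in LPS, and it was at 48.8, 1.87 and 0.616 in LPS-MIC-1. The comparisons of LPS-MIC-1 with the other C2C12 groups therefore set libraries with myogenic markers against libraries with macrophage markers, and treatment and cell identity cannot be told apart in them. Des, the muscle intermediate filament, was at 397.7 ± 78.7 FPKM in LPS-MIC-1 and at no more than 1.19 in any other C2C12 library. The 5 stromal markers summed to no more than 1.65 FPKM in control and LPS and to 425, 353 and 441 in LPS-MIC-1, and the 6 fibre markers to no more than 8.15 and to 594, 609.8 and 854. The 5 listed neutrophil markers summed to between 0.631 and 0.759 FPKM in control, 11.0 and 14.1 in LPS and 5.81 and 6.77 in LPS-MIC-1. The 6 lymphoid markers summed to between 1.94 and 2.34, 9.31 and 9.59, and 1.06 and 1.57 FPKM in the same groups, and the 6 endothelial markers to at most 0.166 in any C2C12 library. By the steps of low values, the depth relative to control replicate 1 was between 0.839 and 0.849 in LPS and was 0.722, 0.887 and 0.467 in LPS-MIC-1, so low values in the last library rest on the fewest reads.

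In the C2C12 control libraries, Stat6, the factor of interleukin-4 and interleukin-13 signalling, was the most abundant of the 9. It made up 39.6% of their summed FPKM, followed by Jak1 and then Stat3, Tyk2, Jak3, Stat5b, Stat2, Jak2 and Stat5a, and the ranges of no neighbours in this order overlapped. In LPS the order was Jak1, Stat6, Stat3 and Stat2, then Jak2, Tyk2 and Jak3 with overlapping ranges between neighbours, then Stat5b and Stat5a. In LPS-MIC-1 Stat3 led with 43.3% of the sum, followed by Jak1, whereas Stat6 held 1.24%. Below Jak1, the ranges of Tyk2, Jak2 and Stat5b overlapped from one neighbour to the next, as did those of Stat5a and Jak3 and those of Stat2 and Stat6. The 4 kinases summed to 76.9 ± 0.781, 136 ± 4.42 and 30.1 ± 3.59 FPKM in control, LPS and LPS-MIC-1 (SD, n = 3), and the 5 STAT genes summed to 116 ± 0.873, 157 ± 0.638 and 39.8 ± 3.69.

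**Figure D1:**
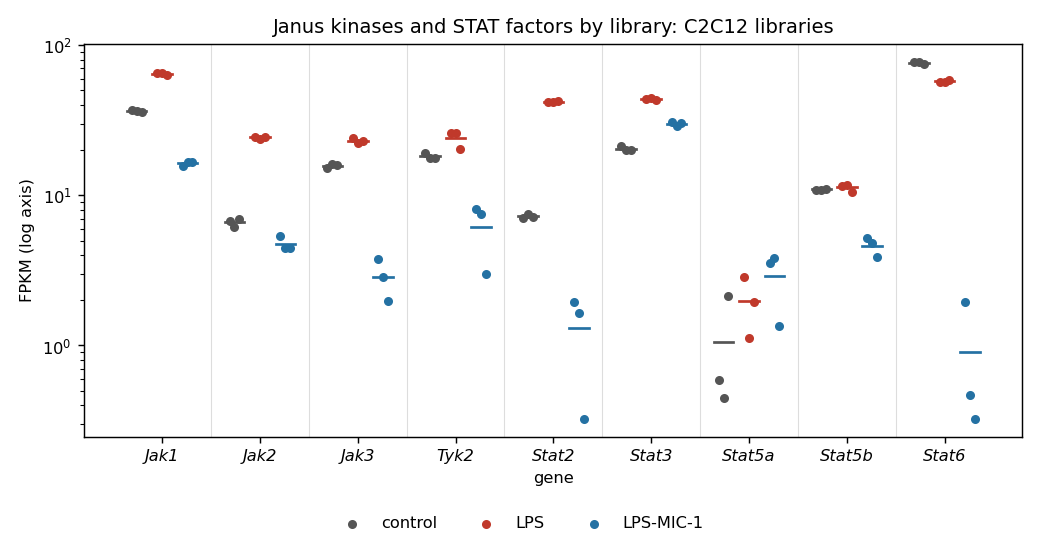
FPKM (log axis) of the 4 Janus kinases and 5 STAT factors in each C2C12 library, with 1 point per library and a line at the mean of 3. Jak1, Jak2 and Stat3 passed higher with LPS. Every LPS library was also above every control for Stat2, Jak3 and Tyk2, which did not pass in the fit over all libraries. Stat6 was under 2 FPKM in every LPS-MIC-1 library against more than 57 FPKM in the other 6.

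With LPS alone, Jak1, Jak2 and Stat3 passed higher in C2C12 in the fit over 9 libraries, and none of the 9 genes passed lower. Every LPS library was also above every control for Stat2, Jak3 and Tyk2, and below every control for Stat6. Of all genes tested, 18.6% passed higher and 19.3% passed lower in this comparison. Jak2 and Stat3 were called, beside 10.9% of all genes called higher and 10.0% called lower. The 3 LPS libraries did not overlap the 3 controls for 7 of the 9 genes, beside 79.4% of all genes. The median log2 change of the 9 genes was 0.82, and that of all genes tested was 0.00.

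Jak2, the kinase of interferon-gamma, growth hormone and erythropoietin receptors, was at 6.75, 6.14 and 6.99 FPKM in control and 24.6, 23.8 and 24.5 in LPS. Every LPS library was above every control, a 3.64-fold rise (log2 change 1.86, SE 0.0906, adjusted p = 9.77e-07). Jak1, which serves most interferon and interleukin-6 type receptors, was at 36.9, 36.3 and 36.0 FPKM in control and 65.3, 65.1 and 63.2 in LPS. Its 1.77-fold rise passed the test below the fold needed for a call (log2 change 0.82, SE 0.0415, adjusted p = 1.16e-06). Jak3, the kinase bound to the common gamma chain of interleukin-2 type receptors, was at 15.2, 16.1 and 15.9 FPKM in control and 24.0, 22.3 and 23.1 in LPS. The groups were apart, but the change of 0.55 on the log2 scale did not pass in the fit over 9 libraries (SE 0.197, adjusted p = 0.0383), whereas it passed with the 6 libraries compared (adjusted p = 1.76e-05). Tyk2, the partner of Jak1 at the type I interferon receptor, was at 19.0, 17.9 and 17.6 FPKM in control and 26.0, 26.1 and 20.4 in LPS, with a log2 change of 0.40 that did not pass (adjusted p = 0.336).

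Among the STAT genes, Stat3, the main factor of interleukin-6 type cytokines, was at 21.3, 19.9 and 19.9 FPKM in control and 43.9, 44.3 and 43.3 in LPS. The libraries of a group lay close together and the groups were far apart, a 2.15-fold rise (log2 change 1.10, SE 0.0460, adjusted p = 4.74e-07). Stat2, the partner in the type I interferon complex, had the widest gap: 7.11, 7.52 and 7.22 FPKM in control against 41.9, 41.7 and 42.5 in LPS. Its 5.71-fold difference did not pass in the fit over 9 libraries, whose shared spread includes the LPS-MIC-1 values of 1.94, 1.63 and 0.325 (log2 change 2.51, SE 0.518, adjusted p = 0.00301). It passed with the 6 libraries compared (adjusted p = 7.59e-09) and without LPS-MIC-1 replicate 3 (adjusted p = 2.14e-07).

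Stat6 was at 77.2, 77.5 and 75.1 FPKM in control and 57.2, 57.3 and 58.3 in LPS, the one gene of the 9 with every LPS library below every control. The log2 change of -0.41 did not pass over 9 libraries (SE 0.499, adjusted p = 0.509) and passed with the 6 libraries compared (adjusted p = 4.86e-06). Stat5b, a factor of growth hormone signalling, was at 10.9, 10.9 and 11.1 FPKM in control and 11.6, 11.8 and 10.5 in LPS, so the groups overlapped (log2 change 0.04, adjusted p = 0.791). Stat5a, its close paralog, was the lowest of the 9, at 0.593, 0.444 and 2.12 FPKM in control and 2.85, 1.12 and 1.95 in LPS, also with overlap (log2 change 1.05, adjusted p = 0.182). Reads shared by these near-identical genes had to be assigned by the pseudoalignment, so their separate values are uncertain. Added together, they were at 13.3 ± 1.03 FPKM with LPS and at 7.54 ± 2.01 with LPS-MIC-1 (SD, n = 3).

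In LPS-MIC-1 against LPS, 8 of the 9 genes were lower in C2C12, 7 of them called, beside 33.7% of all genes passing lower and 25.6% called lower. Over all genes, 32.8% passed higher and 24.3% were called higher. Stat5a was the exception. The groups did not overlap for the same 8 genes, beside 85.5% of all genes, and the median log2 change was -2.06 for the 9 genes and -0.05 for all genes tested. The macrophage, myogenic, stromal and fibre sums given above move with every one of these differences.

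Each of the 4 kinases was called lower. Jak3 had the largest fall of the kinases, from the LPS values above to 3.77, 2.85 and 1.97 FPKM (8.08-fold lower, log2 change -3.01, SE 0.197, adjusted p = 1.51e-06). Jak2 was at 5.33, 4.43 and 4.47 FPKM in LPS-MIC-1, 5.06-fold lower than in LPS (log2 change -2.34, adjusted p = 7.48e-08). Jak1 was at 15.6, 16.7 and 16.6 FPKM, 3.94-fold lower (log2 change -1.98, adjusted p = 5.13e-09). All LPS-MIC-1 libraries of these 3 kinases lay below all LPS and all control libraries. Tyk2 was at 8.08, 7.52 and 2.99 FPKM, with the shallowest library lowest, and 4.18-fold lower (log2 change -2.06, SE 0.338, adjusted p = 0.000509). Its call was lost when any single control or LPS library was left out (adjusted p between 0.00128 and 0.00271), and with the 6 libraries compared (adjusted p = 0.00327).

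The STAT genes ranged from the steepest falls of the 9 to no call at all. Stat6 was at 1.94, 0.468 and 0.326 FPKM in LPS-MIC-1, 73.0-fold lower than in LPS (log2 change -6.19, SE 0.499, adjusted p = 5.76e-06). Stat2 was 36.8-fold lower (log2 change -5.20, SE 0.518, adjusted p = 2.2e-05). In both, replicate 1 of LPS-MIC-1 had the highest value, and it also held the highest macrophage sum of its group (246 FPKM). Replicate 3, the shallowest library, had the lowest value of both genes. Its macrophage sum was above that of replicate 2 (90.9 against 78.3 FPKM). Stat5b was at 5.21, 4.80 and 3.88 FPKM and 2.42-fold lower (log2 change -1.28, adjusted p = 9.38e-06). Stat3 was at 30.9, 29.0 and 30.3 FPKM, 1.46-fold lower than in LPS, and passed the test without a call (log2 change -0.54, SE 0.0460, adjusted p = 7.77e-06). Stat5a was at 3.55, 3.82 and 1.34 FPKM and overlapped LPS (log2 change 0.50, adjusted p = 0.475).

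Against control, 4 of the 9 genes were called lower in the LPS-MIC-1 cells, Jak1, Jak3, Stat5b and Stat6, beside 22.1% of all genes. These 4 were also the genes that passed lower, beside 30.5% of all genes. Stat3 alone passed in the other direction, beside 29.9% of all genes (21.1% were called higher), at 30.0 ± 0.931 FPKM against 20.4 ± 0.835 (SD, n = 3, log2 change 0.56, adjusted p = 7.56e-06). The groups did not overlap for 8 genes, beside 83.0% of all genes. The log2 changes of the called genes were -1.15 for Jak1, -2.46 for Jak3, -1.24 for Stat5b and -6.60 for Stat6. Jak2 (-0.48, adjusted p = 0.00131), Stat2 (-2.69, adjusted p = 0.00144) and Tyk2 (-1.66, adjusted p = 0.00197) missed the threshold of 0.001, and Stat5a overlapped control (1.54, adjusted p = 0.0491). Each of these 3 passed without 1 of the LPS-MIC-1 libraries, Jak2 without replicate 1 (adjusted p = 0.000236), Stat2 without replicate 3 (4.5e-07) or replicate 1 (0.000821) and Tyk2 without replicate 3 (4.45e-05).

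**Figure D2:**
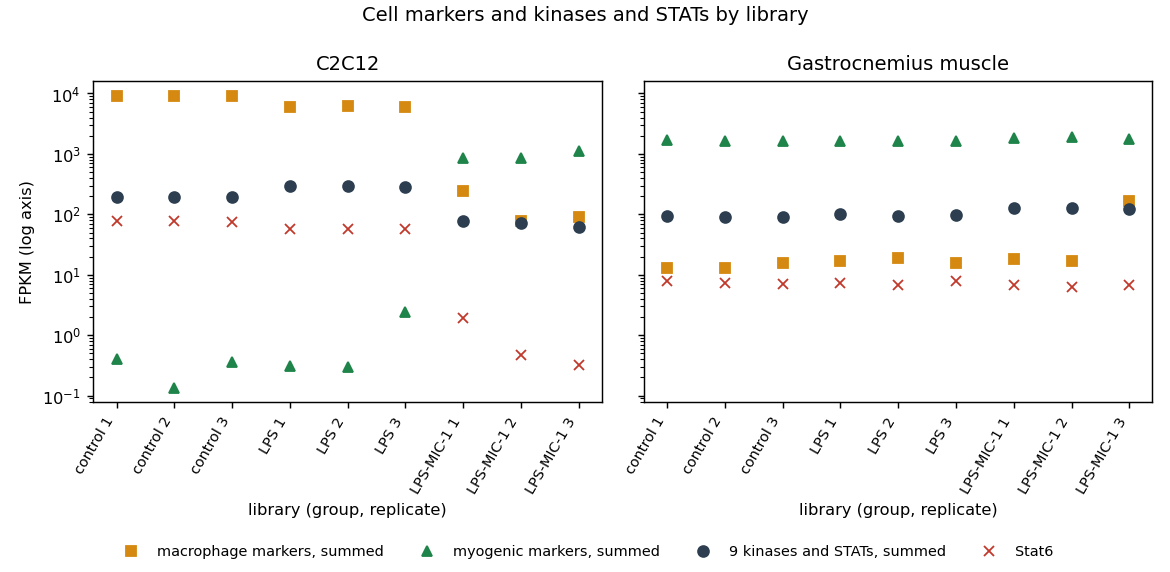
Summed FPKM (log axis) of the macrophage markers, the myogenic markers and the 9 kinases and STATs, with Stat6 alone, in each library (labelled by group and replicate on the x axis). In C2C12, the 6 control and LPS libraries have macrophage sums of at least 5971 FPKM, and the LPS-MIC-1 libraries have myogenic sums of at least 841 FPKM and low Stat6. In muscle, LPS-MIC-1 replicate 3 has the highest macrophage sum (164 FPKM).

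In gastrocnemius muscle the 6 fibre markers summed to between 152173 and 158005 FPKM in control, 150042 and 153853 in LPS and 117261 and 127108 in LPS-MIC-1, led by Acta1, the skeletal alpha-actin (between 51768.3 and 56819.5 FPKM in control). The 6 lymphoid markers summed to no more than 0.841 FPKM in any muscle library. Stat5b was the most abundant of the 9 genes in control, with 46.8% of their summed FPKM, ahead of Jak1, then Jak2 and Stat6 (overlapping), Stat3, Stat2 and Jak3 (overlapping), and Tyk2 and Stat5a (overlapping). In LPS, Stat5b, Jak1 and Jak2 kept this order, and below them the ranges of Stat6 and Stat3 overlapped, as did neighbours among Jak3, Stat2, Tyk2 and Stat5a. In LPS-MIC-1, Jak1 and Stat5b overlapped at the top and Stat3 came next with 23.5% of the sum, against 6.74% in control. The kinases summed to 30.7 ± 0.943, 38.3 ± 0.804 and 47.4 ± 1.41 FPKM in control, LPS and LPS-MIC-1 (SD, n = 3), and the STAT genes to 60.7 ± 0.308, 59.0 ± 1.36 and 78.9 ± 1.62. In a whole muscle, fewer cells of a type and less RNA per cell cannot be told apart.

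**Figure D3:**
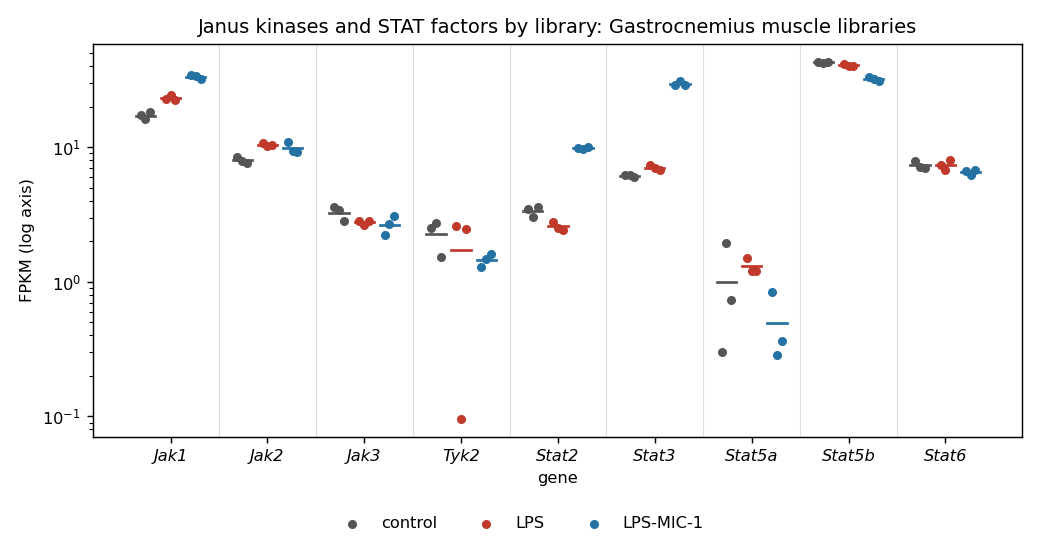
FPKM (log axis) of the same 9 genes in each gastrocnemius library, with 1 point per library and a line at the mean of 3. Stat2 and Stat3 are higher in the 3 LPS-MIC-1 libraries than in the other 6, and 1 LPS library is low for Tyk2 (0.0961 FPKM).

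LPS alone moved the 8 tested genes little in muscle. Jak1, Jak2 and Stat3 passed higher and Stat2 passed lower, beside 8.25% of all genes higher and 7.48% lower. None was called by limma, beside 0.654% of all genes called higher and 0.591% called lower, and 0 reached the same fold at an unadjusted p under 0.05. The groups did not overlap for 5 of 8 genes, beside 36.5% of all genes. The median log2 change was -0.03 for the 8 genes and 0.01 for all genes tested.

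Jak1 was at 17.2, 16.1 and 18.2 FPKM in control muscle and 23.0, 24.6 and 22.4 in LPS, a 1.36-fold rise with no overlap (log2 change 0.44, SE 0.0574, adjusted p = 0.00162). Jak2 was at 8.47, 7.97 and 7.67 FPKM in control and 10.7, 10.2 and 10.5 in LPS, a 1.30-fold rise with no overlap (log2 change 0.38, SE 0.0734, adjusted p = 0.0105). Jak1 and Jak2 passed higher after LPS in both experiments. Stat3 did so too, but in muscle its pass was lost under most alternatives. Jak3 was at 3.59, 3.39 and 2.81 FPKM in control and 2.85, 2.66 and 2.81 in LPS (log2 change -0.22, adjusted p = 0.32). Tyk2 was at 2.53, 2.74 and 1.53 FPKM in control and 2.60, 0.0961 and 2.46 in LPS. One LPS library decides its fitted change of -1.06 (SE 0.900, adjusted p = 0.486), which was 0.19 without LPS replicate 2.

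Stat2 was at 3.49, 3.03 and 3.58 FPKM in control muscle and 2.80, 2.51 and 2.43 in LPS, 1.29-fold lower with no overlap (log2 change -0.37, SE 0.0859, adjusted p = 0.0224). It no longer passed without control replicate 1 or 3 or LPS replicate 2 or 3, nor with the 6 libraries compared (adjusted p between 0.0674 and 0.0737). Stat3 was at 6.26, 6.26 and 5.97 FPKM in control and 7.40, 7.04 and 6.75 in LPS, 1.14-fold higher (log2 change 0.19, SE 0.0535, adjusted p = 0.0436). Its rise passed narrowly, and it missed the threshold in 14 of 18 alternatives. It missed whenever any single library was left out (adjusted p up to 0.132) and under the replicate block (adjusted p = 0.0578). It also missed with a pseudocount of 1, with no filter, with no trend and with only the 6 libraries compared. Stat5b, at 43.1, 42.2 and 43.2 FPKM in control and 41.3, 40.1 and 40.4 in LPS, was lower in every LPS library without passing (log2 change -0.08, adjusted p = 0.208). Stat6 overlapped, at 7.87, 7.19 and 6.99 FPKM in control and 7.41, 6.83 and 8.02 in LPS (log2 change 0.01, adjusted p = 0.931). Stat5a was at 0.299, 1.95 and 0.730 FPKM in control, 1.51, 1.21 and 1.20 in LPS and 0.842, 0.284 and 0.365 in LPS-MIC-1, and it was not tested.

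In LPS-MIC-1 against LPS, Stat2 and Stat3 were called higher in muscle, beside 9.67% of all genes (5.44% were called lower). Jak1 also passed higher, beside 28.3% of all genes, and Stat5b passed lower, beside 28.2%. The groups did not overlap for 5 of the 8 genes, beside 64.2% of all genes. The median log2 change was 0.21 for the 8 genes and -0.01 for all genes tested. Quantile normalization moved the median of all genes to -0.12, and the directions of these 4 genes held under it.

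Stat3 was at 29.3, 30.9 and 28.8 FPKM in LPS-MIC-1, 4.16-fold above LPS (log2 change 2.06, SE 0.0535, adjusted p = 1.75e-08). Stat2 was at 9.83, 9.67 and 10.0 FPKM, 3.71-fold above LPS (log2 change 1.89, SE 0.0859, adjusted p = 4.67e-07). Both genes were tight within the group and far above all 6 other libraries. Jak1 was at 34.5, 33.6 and 32.2 FPKM, a 1.43-fold rise over LPS (log2 change 0.52, adjusted p = 9.54e-05), so that its 3 groups stood in the order control, LPS, LPS-MIC-1 with no overlap. Stat5b was at 33.6, 32.3 and 31.1 FPKM and fell 1.25-fold (log2 change -0.33, SE 0.0369, adjusted p = 0.000109), with no overlap either.

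The remaining genes did not pass in this comparison. Jak2 was at 10.9, 9.42 and 9.22 FPKM in LPS-MIC-1 (log2 change from LPS -0.09, adjusted p = 0.312) and Jak3 at 2.25, 2.69 and 3.06 (-0.07, adjusted p = 0.697), both overlapping LPS. Stat6, at 6.66, 6.24 and 6.80 FPKM, lay just below all LPS libraries (log2 change -0.17, adjusted p = 0.0922). Under quantile normalization, Stat6 and Jak2 passed lower (adjusted p = 0.00658 and 0.0199), and Stat6 also passed lower without LPS replicate 2 (adjusted p = 0.0464). Tyk2 was at 1.29, 1.49 and 1.60 FPKM, with a log2 change of 0.49 (adjusted p = 0.669) that became -0.76 and passed (adjusted p = 0.0365) when LPS replicate 2 was left out.

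Against control, the muscle of LPS-MIC-1 mice had Stat3 4.75-fold higher (log2 change 2.25, adjusted p = 9.38e-09) and Stat2 2.87-fold higher (log2 change 1.52, adjusted p = 1.61e-06), and both were called, beside 9.33% of all genes called higher and 6.12% called lower. Jak1 rose 1.94-fold, just under the fold for a call (log2 change 0.96, adjusted p = 2.3e-06), and Jak2 rose 1.22-fold (log2 change 0.29, adjusted p = 0.00949, and 0.115 under quantile normalization). Of all genes, 30.0% passed higher and 28.5% lower. Stat5b fell 1.32-fold (log2 change -0.40, adjusted p = 2.89e-05). The groups did not overlap for 6 of the 8 genes, beside 64.6% of all genes. Jak3 (-0.29), Tyk2 (-0.57) and Stat6 (-0.16) did not pass on the log2 scale (adjusted p = 0.1, 0.616 and 0.113), and under quantile normalization Jak3 and Stat6 passed lower (adjusted p = 0.0241 and 0.00705). Jak3 also passed lower without control replicate 3 (adjusted p = 0.0457) or LPS-MIC-1 replicate 3 (adjusted p = 0.0431).

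Some marker lists moved with the LPS-MIC-1 muscle group, among them the fibre sum given above, which was lower there than in all 6 other libraries. The sum of the 8 myogenic markers was higher there, at 1842, 1871 and 1741 FPKM. It was between 1604 and 1713 in control and between 1650 and 1661 in LPS. Their median was lower there, at 3.74, 3.94 and 3.29 FPKM against at least 3.97 in any control or LPS library. The 5 listed neutrophil markers summed to 10.4, 17.0 and 14.6 FPKM there, against no more than 2.56 in any control or LPS library. Macrophage markers summed to 18.1, 16.9 and 164 FPKM in LPS-MIC-1, from 13.1 to 15.4 in control and from 15.8 to 19.0 in LPS. Their median was 1.10, 1.31 and 9.11 FPKM in LPS-MIC-1, against no more than 0.692 in any control or LPS library. Lyz2 was at 5.27, 3.93 and 78.3 FPKM and Csf1r, the receptor of the macrophage growth factor, at 0.666, 1.13 and 12.4 in LPS-MIC-1. In replicate 3, which held most of that macrophage signal, Stat3 was lowest of its group and Stat2 was at 10.0 FPKM against 9.83 and 9.67. Without that library both were still called higher against LPS (log2 change 2.08 for Stat3 and 1.88 for Stat2, adjusted p = 3e-07 and 6.7e-06). The endothelial sum was between 70.8 and 76.0 FPKM in control, 44.2 and 47.6 in LPS and 69.5 and 78.0 in LPS-MIC-1, whereas the stromal markers moved both ways. Their sum was between 128 and 146 FPKM in LPS-MIC-1 and between 106 and 113 in the other groups, but the median of the 5 markers was 5.79, 4.77 and 4.54 FPKM in LPS-MIC-1 against 12.1 to 13.2 in the others. The part of the macrophage, fibre, myogenic, neutrophil, endothelial and stromal lists in the results for the 9 genes was not tested. Leaving out 1 library does not test it.

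**Figure D4:**
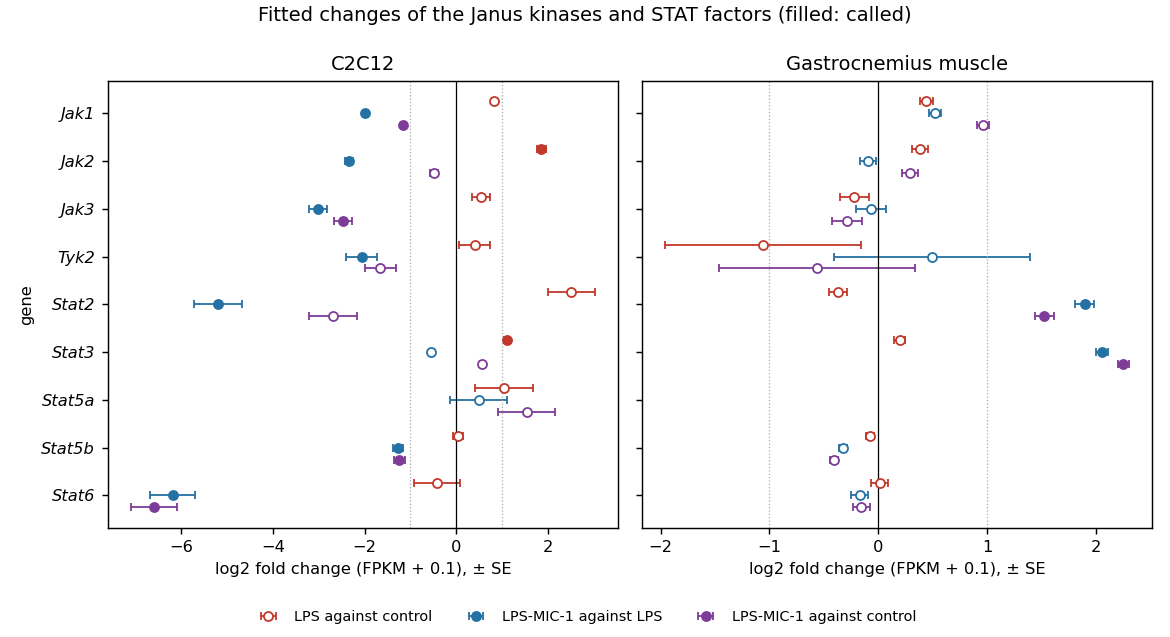
Fitted log2 changes (points, bars of 1 SE) of the 9 genes in C2C12 and of the 8 tested genes in muscle, for LPS against control, LPS-MIC-1 against LPS and LPS-MIC-1 against control, with filled points for called genes. In C2C12 most changes from LPS to LPS-MIC-1 lie below 0, down to -6.19 for Stat6, and in muscle Stat2 and Stat3 lie near 2.

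The genes around the kinases and STATs were followed in 4 lists, of ligands, receptors, inhibitors and target genes. In C2C12 with LPS alone, 5 of 9 tested ligands, 5 of 18 inhibitors and 10 of 17 targets were called higher, beside 10.9% of all genes. Of the 22 receptors 2 were called higher, near that share, and 1 receptor and 1 target were called lower, beside 10.0% of all genes. Ligands and inhibitors had no gene called lower by limma, and at an unadjusted p under 0.05 with the same fold the counts were 0 and 1. The median log2 changes were 3.73 for ligands, 0.28 for receptors, 0.56 for inhibitors and 1.72 for targets, beside 0.00 for all genes.

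Among the ligands, Csf3, the granulocyte growth factor that acts through Stat3, had the largest log2 change (12.57, adjusted p = 9.17e-05), and Il6 was listed at 0 in every control library and averaged 56.8 ± 3.63 FPKM in LPS (SD, n = 3). Among the receptors, Il4ra, the interleukin-4 receptor chain that recruits Stat6, rose from 2.20 ± 0.185 to 13.5 ± 1.21 FPKM (log2 change 2.56, adjusted p = 2.6e-07). Csf3r, the receptor of Csf3, fell from 4.24 ± 0.560 to 1.06 ± 0.289 FPKM (log2 change -1.93, adjusted p = 5.81e-05). Among the inhibitors, 2 led the changes. Socs3, the inhibitor of gp130 receptors and a target of Stat3, went from 33.0 ± 1.43 to 298 ± 2.47 FPKM (log2 change 3.17, adjusted p = 6.95e-07), and Cish, an inhibitor induced by Stat5, from 0.0405 ± 0.0433 to 17.0 ± 1.43 (log2 change 6.97, adjusted p = 0.000179). The interferon-stimulated targets Rsad2 (log2 change 7.50, adjusted p = 0.000615) and Isg15 (5.29, adjusted p = 2.75e-05) had the largest changes of the target list.

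In LPS-MIC-1 against LPS, 14 of the 17 targets were called lower in C2C12 and none higher by limma (0 also at an unadjusted p under 0.05 with the same fold), beside 25.6% and 24.3% of all genes. Also called lower were 7 of 9 ligands, 11 of 22 receptors and 7 of 18 inhibitors. Called higher were 2 ligands and 5 receptors, both near the share of all genes, and 3 inhibitors, somewhat below it. The median log2 changes were -4.30 for ligands, -1.48 for receptors, -0.89 for inhibitors and -2.66 for targets, beside -0.05 for all genes. Receptors moved both ways. Csf2ra, the receptor chain of the granulocyte-macrophage growth factor, fell from 90.5 ± 1.38 FPKM to 2.38, 0.136 and 0.323 (log2 change -7.17, adjusted p = 2.57e-05), whereas Osmr, the oncostatin M receptor, rose from 0, 0 and 0.0379 FPKM in LPS to 16.2, 13.5 and 11.7 (log2 change 6.95, adjusted p = 1.29e-08). Osm, the ligand of Osmr, fell from 153 ± 3.61 FPKM to 5.29, 0.197 and 0 (log2 change -8.14, adjusted p = 0.000306). The phosphatase Ptpn6, abundant in blood cells, fell from 87.4 ± 1.99 FPKM to 3.76, 0.528 and 1.00 (log2 change -5.98, adjusted p = 1.42e-05), and Usp18, which limits interferon signalling, had a log2 change of -7.42 (adjusted p = 0.000146). The largest other falls were those of Csf3 among ligands (-8.79) and of Irf7 and Rsad2 among targets (-8.47 and -8.46 on the log2 scale). Cell identity moves with these differences as with those of the 9 genes.

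**Figure D5:**
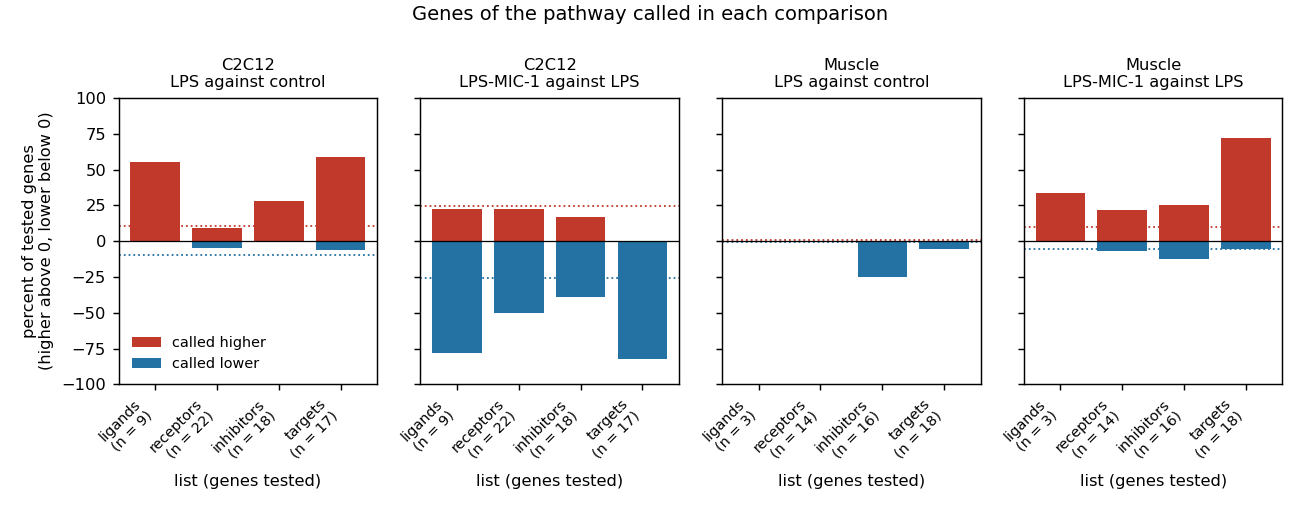
Percent of the tested genes of each list called higher (above 0) or lower (below 0) in LPS against control and in LPS-MIC-1 against LPS, in both experiments, with dotted lines at the percent of all tested genes called higher or lower. In C2C12, 14 of 17 targets are called lower from LPS to LPS-MIC-1, and in muscle 13 of 18 are called higher.

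In muscle, LPS alone left the same lists with few calls. Of 3 tested ligands and 14 receptors none was called by limma, and at an unadjusted p under 0.05 with the same fold the counts were 0 ligands and 1 receptor. No inhibitor or target was called higher (0 at the unadjusted p too), while 4 of 16 inhibitors and 1 of 18 targets were called lower, beside 0.591% of all genes. The median log2 changes were -0.46, -0.10, -0.02 and -0.04 for ligands, receptors, inhibitors and targets. Socs1, an inhibitor of interferon-gamma signalling, fell from 48.8 ± 1.08 to 0.866 ± 0.478 FPKM (SD, n = 3, log2 change -5.79, adjusted p = 1.84e-05). Cish fell from 47.1 ± 0.283 to 4.42 ± 0.540 FPKM (log2 change -3.39, adjusted p = 4.34e-07) and stood at 1.39 ± 0.0967 in LPS-MIC-1. Cebpd, an acute-phase transcription factor induced by Stat3, fell from 12.9 ± 0.561 to 4.66 ± 0.654 FPKM (log2 change -1.46, adjusted p = 4.97e-05).

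From LPS to LPS-MIC-1, 13 of 18 targets were called higher and 1 lower in muscle, together with 1 ligand, 3 receptors and 4 inhibitors higher and 0 ligands, 1 receptor and 2 inhibitors lower (0 ligands also at an unadjusted p under 0.05 by limma). Of all genes, 9.67% were called higher and 5.44% lower, so the single called receptor and target on the lower side were near that share. The median log2 change of the targets was 2.50, against -0.30 for ligands, 0.27 for receptors, 0.24 for inhibitors and -0.01 for all genes tested. Cebpd rose to 399 ± 22.2 FPKM (log2 change 6.40, adjusted p = 1.02e-09) and Rsad2 from 0.979 ± 0.0689 to 16.9 ± 0.799 (log2 change 3.98, adjusted p = 2.33e-08). Among the inhibitors, Socs3 rose from 0.697 ± 0.395 to 5.84 ± 0.821 FPKM (log2 change 3.03, adjusted p = 0.000142), beside 5.50 ± 0.771 in control, and Usp18 rose from 1.57 ± 0.424 to 7.98 ± 0.576 (log2 change 2.30, adjusted p = 0.00013). Il4ra rose from 0.816 ± 0.390 to 5.37 ± 1.11 FPKM (log2 change 2.67, adjusted p = 0.000204). Lifr, the receptor chain of leukemia inhibitory factor, fell from 7.69 ± 0.265 to 2.74 ± 0.511 (log2 change -1.47, adjusted p = 2.73e-05). The only called ligand was Csf3, which rose from 0.0423 ± 0.0366 to 8.13 ± 1.09 FPKM (log2 change 5.88, adjusted p = 6.8e-06).

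Across the 9 libraries of an experiment, which fall into 3 separated groups, Pearson's r on the log2(FPKM + 0.1) scale describes which genes have a like pattern. In C2C12, Stat5b and Stat6 (0.989) and Jak3 and Stat5b (0.986) ran close together, whereas Stat3 and Stat6 did not (-0.0565). In muscle, Stat2 and Stat3 had r = 0.961 and Jak1 and Stat3 0.911, while Stat5b ran opposite to Stat3 (-0.979). The gene most like each member in C2C12 was S1pr2 for Jak1 (0.999), Gtpbp2 for Jak2 (0.999), Ankrd52 for Jak3 (0.999), Rexo1 for Tyk2 (0.997), Dusp11 for Stat2 (0.999), Ghdc for Stat3 (0.997), Ccdc88a for Stat5a (0.920), Tbc1d22b for Stat5b (0.996) and BC013712 for Stat6 (0.999). In muscle it was Gpr146 for Jak1 (0.993), Kpna1 for Jak2 (0.970), Rab5c for Jak3 (0.934), Shmt2 for Tyk2 (0.950), Clk1 for Stat2 (0.997), Nup210 for Stat3 (1.00), Klhl31 for Stat5b (0.995) and Naa38 for Stat6 (0.910). No gene was the closest to a member in both experiments. Each value is the highest among all genes tested, and the libraries of a group share their treatment.

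All 9 genes matched a protein-coding gene in RefSeq (assembly GRCm38.p6) by symbol. In that gene order Ghdc, Stat5b, Stat5a, Stat3 and Cavin1 are consecutive protein-coding genes, so the gene most like Stat3 in C2C12 lies in the same cluster. The neighbours of this cluster did not share 1 pattern, since in C2C12 Stat3 passed higher and Stat5b passed lower from control to LPS-MIC-1. Stat2 lies beside Il23a and Apof, and Stat6 between Lrp1 and Nab2. Whether the counting used strand is not stated, so reads of overlapping neighbours cannot be told apart.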

How the data were processed

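RNA-seq reads were pseudoaligned by the authors (kallisto), brought to gene level (tximport) and deposited as FPKM values. The submitters' processing notes name build mm9. The annotation and total reads are not given in the sources used here, so no counting interval was computed. The authors' 6 DESeq2 tables (base means, log2 fold changes, standard errors and p-values) were not used. In the muscle table, 11 further columns without a name, 9 of them numeric, were not used. For MIC-1 in cells, the labels give 10 μM, whereas the paper describes the transcriptome at 1 μM. The control vehicle is saline in the labels, and ethanol (cells) or DMSO (mice) in the paper. The labels also give DMSO as the solvent of MIC-1 for mice.

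Each experiment was fitted apart with limma 3.58.1 in R 4.3.3 on log2(FPKM + 0.1), which understates changes of low genes, with group means over 9 libraries and eBayes with trend. Tests covered genes whose mean FPKM exceeded 1, with Benjamini-Hochberg adjustment over all of them. The steps were run on simulated data in which all groups shared the spread of each gene and genes low in control were left out. Groups of unequal spread were not simulated. Median-ratio factors over the genes above 0 in every library (10789 and 11829) were equal in all libraries of a table. The deposited values were therefore already level on that scale. Relative depth came from the steps between the lowest values of shared genes. Plots used Python 3.11.15 and matplotlib 3.10.9.

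The text names the 9 genes, in each list of ligands, receptors, inhibitors and targets the 2 called genes with the largest change in LPS against control and in LPS-MIC-1 against LPS, the tested gene with the highest correlation to each member, and the markers Lyz2, Csf1r, Des, Myod1 and Acta1. Members, lists, rule and alternatives were chosen with earlier results of these data known. The alternatives were pseudocounts of 1 and 0.01, no filter (above 0 in at least 3 libraries), a mean above 5 FPKM, quantile normalization, median-ratio scaling, a replicate block, eBayes with no trend, a fit of just the 6 libraries compared, and leaving out each library in turn.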

Additional observations from a re-analysis of the deposited data

Results flagged for a closer look

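Both experiments compare groups of the same names, control, LPS and LPS-MIC-1, but dosing, route and times differed. In them, 7 pairs of a gene and a comparison moved in opposite directions, with no overlap between the libraries compared in either. The tables were normalized and fitted apart, so these differences between cells and muscle were not tested. The values are log2 changes. From control to LPS, Stat2 changed by 2.51 in C2C12 and by -0.37 in muscle. From LPS to LPS-MIC-1, the changes in C2C12 and muscle were -1.98 and 0.52 for Jak1, -5.20 and 1.89 for Stat2, and -0.54 and 2.06 for Stat3. From control to LPS-MIC-1, they were -1.15 and 0.96 for Jak1, -0.48 and 0.29 for Jak2, and -2.69 and 1.52 for Stat2. Macrophage and myogenic markers move with the C2C12 values of LPS-MIC-1, and their part in these values cannot be told apart from that of the treatment. The C2C12 control and LPS libraries carried macrophage markers and almost no myogenic markers. The Stat2 pair from control to LPS therefore sets such libraries beside muscle.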

How the results depend on the processing

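Over the 51 results for the 9 genes, 909 values were computed under alternatives, of which 859 kept direction and side of the threshold, 27 no longer passed, 17 passed newly and 6 changed sign. The counts of called genes among the 9 stayed within 1.5 times in each comparison.

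With only the 6 libraries compared, 6 of the 9 genes passed in C2C12 for LPS against control (3 in the fit over 9 libraries), 5 receptors were called there (3), and 2 of the 8 genes passed in muscle for LPS against control (4). Leaving out 1 library at a time, the last count was between 2 and 3 (2 without control replicate 1 or 3 or LPS replicate 2 or 3), and in C2C12 for LPS against control the called inhibitors were between 3 and 7 (5 with all) and the called targets between 7 and 14 (11), lowest in both without control replicate 1 or 2 or LPS replicate 1 or 2. With a pseudocount of 0.01, 3 inhibitors were called there. With a mean FPKM over 5, 9 receptors were called in C2C12 for LPS-MIC-1 against LPS (16), and in muscle 0 ligands (1), 1 receptor (4) and 3 inhibitors (6). With no filter, 2 ligands and 7 receptors were called in that muscle comparison, and 2 receptors with a pseudocount of 1. The counts under other filters follow from testing fewer or more genes, and the cause of the others was not tested. The signs that changed belonged to differences that had not passed. In muscle for LPS against control, leaving out 1 library gave Tyk2 log2 changes between -1.70 and 0.19 (highest without LPS replicate 2) and Stat6 changes between -0.0438 and 0.0705 (negative without control replicate 2 or 3 or LPS replicate 3). For LPS-MIC-1 against LPS, Jak3 was between -0.169 and 0.0459 (positive without LPS-MIC-1 replicate 1) and Tyk2 between -0.76 and 1.13 (negative without LPS replicate 2).

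Same-numbered libraries did not deviate together over all genes tested (r from -0.0757 to 0.0823), so no pairing by number was seen. A pairing that touches few genes could be missed this way. With a replicate block, 2, 7 and 4 of the genes were called in C2C12 and 0, 2 and 2 in muscle for LPS against control, LPS-MIC-1 against LPS and LPS-MIC-1 against control, the same counts as without it, and the genes past the adjusted p in muscle for LPS against control went from 4 to 3, since Stat3 no longer passed. Median-ratio scaling could change no value, since its factors were equal in all libraries, so its results among the 859 were fixed in advance. Low values limit Stat5a, Tyk2 in muscle, and Stat2 and Stat6 in LPS-MIC-1 cells, all near or under 1 FPKM in some library. Muscle LPS replicate 2, with Tyk2 at 0.0961 FPKM, had a relative depth of 0.983, beside 0.996 and 0.993 in replicates 1 and 3. The cause of that low Tyk2 value was not tested.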
